A study of Mus musculus with 7 samples.

Results

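The 10 transcription factor genes Batf3, Irf8, Id2, Nfil3, Zbtb46, Bcl6, Spi1, Irf4, Zeb2 and Tcf4 were followed across 7 libraries of mouse CD8 dendritic cells. They were named as factors that build or oppose the type 1 conventional dendritic cell (cDC1), and all 10 were found by Entrez identifier among 27179 genes and passed the filter on low counts. All samples were fluorescence-sorted CD8 dendritic cells of C57BL/6 mice. CpG CD103 high cells (n = 2) had a high surface level of CD103, the integrin alpha E chain, and were labelled as CpG treated. CpG DNA is a ligand of the Toll-like receptor TLR9. CD103 low cells (n = 2) and CD103 negative cells (n = 3) were labelled untreated. The series concerns dendritic cells that start responses poorly after systemic inflammation. No source used here gives the tissue, age, dose, time after treatment or number of mice behind a sample. CpG treatment and a high CD103 level coincide, so the effect of one cannot be told apart from that of the other.

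The cDC1 is known for cross-presentation, in which antigen taken from dying cells is shown to CD8 T cells. In mice its identity rests on IRF8, which binds DNA together with BATF3 and JUN family partners, while ID2 holds back E proteins such as TCF4, the factor that maintains plasmacytoid dendritic cells. NFIL3 and ZEB2 act upstream and against each other, NFIL3 on the side of the cDC1 and ZEB2 on the side of plasmacytoid and type 2 conventional dendritic cells (cDC2). IRF4 takes the place of IRF8 in the cDC2, PU.1 (Spi1) is needed by all dendritic cells, ZBTB46 marks conventional dendritic cells, and BCL6 is a repressor needed for the cDC1.

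Libraries held between 4474211 and 4629181 counts, within 1.03-fold of each other. Levels are given as CPM, the counts per 1000000 counts of the scaled library size. The labels carry dates: both CpG CD103 high replicates and CD103 negative replicates 1 and 2 were dated 2012, and both CD103 low replicates and CD103 negative replicate 3 were dated 2013. Fits therefore included the year, which sets CpG CD103 high against CD103 negative replicates 1 and 2, and CD103 low against CD103 negative replicate 3 alone. What the dates refer to is not stated, and the 3 comparisons share the CD103 negative libraries. Itgae, the gene of the sorted protein, averaged 1006 CPM in CpG CD103 high, 360 CPM in CD103 low and 59.6 CPM in CD103 negative cells, in the order of the labels. Of 25 cDC1 markers, among them Xcr1, Clec9a, Cadm1 and Itgae, none was at 0 in any group. Their summed level ran from 31927 to 31986 CPM in CpG CD103 high, from 27051 to 27833 CPM in CD103 low and from 22553 to 23726 CPM in CD103 negative cells. Since the sum includes Itgae, part of its difference between the groups follows from the sort.

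Ordered by level per length of the gene model (RPKM, the CPM divided by the deposited length in kilobases), the factors of the cDC1 stood above those that oppose it. Over the 7 libraries Irf8 averaged 838 RPKM, Id2 592 RPKM, Spi1 373 RPKM and Batf3 100.2 RPKM. Bcl6 followed at 53.3 RPKM, Zbtb46 at 33.7 RPKM and Nfil3 at 9.12 RPKM. Tcf4 averaged 3.98 RPKM, Irf4 1.19 RPKM and Zeb2 0.291 RPKM. Irf8, from 642 to 1122 RPKM, overlapped Id2, from 462 to 738 RPKM. The lowest library of Id2 lay above the highest of Spi1, and the same held for Spi1 over Batf3 and for Batf3 over Bcl6. Bcl6, from 37.0 to 70.7 RPKM, overlapped Zbtb46, from 24.9 to 43.5 RPKM, and the lowest library of Zbtb46 lay above the highest of Nfil3. Nfil3, from 2.93 to 22.0 RPKM, overlapped Tcf4, from 1.56 to 8.34 RPKM, which overlapped Irf4, from 0.284 to 3.00 RPKM, and Irf4 overlapped Zeb2, from 0.145 to 0.981 RPKM.

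**Figure D1:**
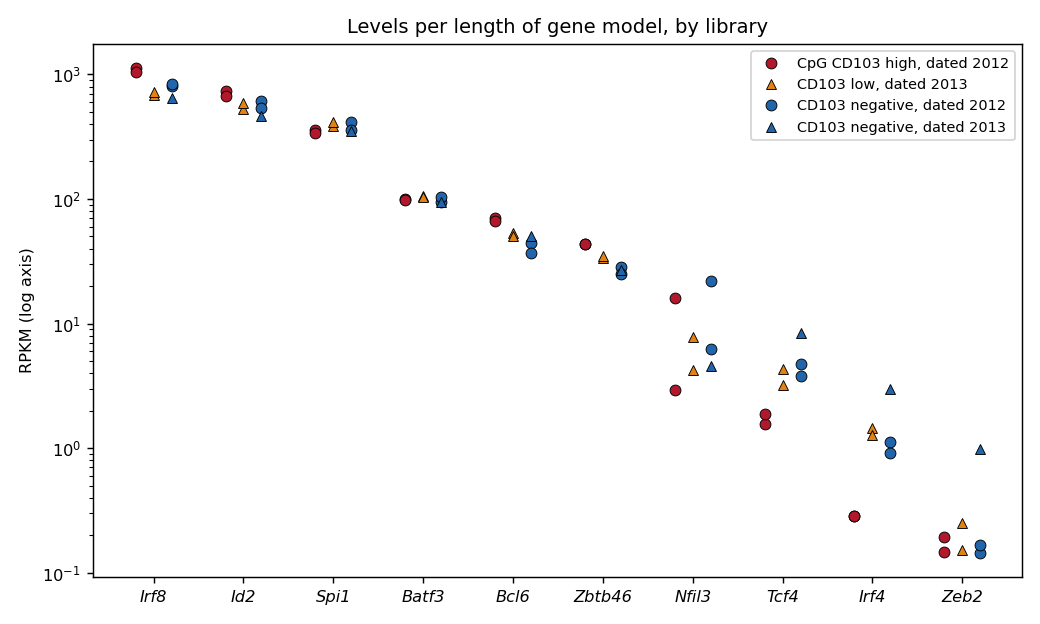
Level of each factor per length of its gene model (RPKM, log axis) in each library, with genes in order of their mean; colours mark the groups and shapes the year on the label. Irf8, Id2 and Spi1 sit at 336 RPKM or more in all libraries, and Irf4 and Zeb2 sit at 3.00 RPKM or less.

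CpG CD103 high cells were first set against CD103 negative cells, treated cells against untreated ones without CD103. Of the 10 factors 4 rose (Irf8, Id2, Zbtb46 and Bcl6) and 2 fell (Irf4 and Tcf4), at an adjusted p under 0.05 over all 10863 genes tested. In this comparison 26.3% of all genes tested were called, 14.5% higher and 11.8% lower. The CPM of the 2 groups did not overlap for the same 6 factors, against 44.7% of all genes tested. The median log2 fold change was 0.07 over the 10 factors and -0.01 over all genes.

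Irf8 (chromosome 8, 120736358 to 120756694, mm10) had 3175 and 2933 CPM in CpG CD103 high replicates 1 and 2, against 2296, 2374 and 1816 CPM in CD103 negative replicates 1, 2 and 3. Both CpG CD103 high libraries were above all CD103 negative ones, and the lowest level was in the CD103 negative library dated 2013. Irf8 rose 1.31-fold, with a log2 fold change of 0.39 (SE 0.08, adjusted p 0.00522). It was called under all 13 distinct alternative fits, at an adjusted p between 0.000813 and 0.0391.

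Batf3, the partner of IRF8, did not pass the test. It had 71.4 and 69.9 CPM in CpG CD103 high libraries, against 67.2, 73.3 and 67.5 CPM in CD103 negative libraries. The groups overlapped, and the log2 fold change was 0.01 with a 95% interval of -0.22 to 0.24 (adjusted p 0.961).

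Id2, the inhibitor of E proteins, had 939 and 861 CPM in CpG CD103 high libraries, against 774, 688 and 588 CPM in CD103 negative libraries. It rose 1.23-fold (log2 fold change 0.30, SE 0.09, adjusted p 0.0407), close to the threshold. Its adjusted p ran from 0.0422 to 0.213 over 13 distinct alternative fits, and 9 of them lost the call: no filter on low counts, DESeq2, no date term, the libraries dated 2012 only, and the fits without either CpG CD103 high replicate, either CD103 low replicate or CD103 negative replicate 2.

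Zbtb46 (chromosome 2, 181371009 to 181493262) had 144 and 145 CPM in CpG CD103 high libraries, against 94.9, 83.0 and 90.2 CPM in CD103 negative libraries. It rose 1.63-fold (log2 fold change 0.70, SE 0.10, adjusted p 0.000826), with no overlap and little spread within either group. Bcl6 (chromosome 16, 23965050 to 23988866) had 232 and 219 CPM in CpG CD103 high libraries, against 146, 122 and 167 CPM in CD103 negative libraries. It rose 1.69-fold (log2 fold change 0.75, SE 0.10, adjusted p 0.000789), within 1 SE of the change of Zbtb46. Both genes were called under all 13 distinct alternative fits. Exons of Bcl6 share 21 bases with the gene Gm37419 in GENCODE M21.

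Irf4 (chromosome 13, 30749233 to 30766981) had 1.33 and 1.34 CPM in CpG CD103 high libraries, 6 counts in each, against 5.27, 4.31 and 14.0 CPM in CD103 negative libraries, from 24, 20 and 66 counts. It fell to 0.284 of the CD103 negative level (log2 fold change -1.82, SE 0.38, adjusted p 0.00713), and the groups did not overlap. With DESeq2 the change was -1.85 and missed the threshold (adjusted p 0.0529), while the other 12 distinct fits kept the call. Tcf4 (chromosome 18, 69343429 to 69687967) had 12.0 and 14.3 CPM in CpG CD103 high libraries, against 29.2, 36.2 and 64.1 CPM in CD103 negative libraries. It fell to 0.403 of the CD103 negative level (log2 fold change -1.31, SE 0.20, adjusted p 0.00134) and was called under all 13. In bulk samples fewer cells of a type and less RNA per cell cannot be told apart.

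The other 3 factors did not pass the test. Spi1 had 477 and 448 CPM in CpG CD103 high libraries, against 550, 473 and 468 CPM in CD103 negative libraries, and its log2 fold change was -0.15 with a 95% interval of -0.36 to 0.07 (adjusted p 0.289). Zeb2 had 1.77 and 1.34 CPM in CpG CD103 high libraries, against 1.32, 1.51 and 8.94 CPM in CD103 negative libraries. With 6 to 8 counts in the libraries dated 2012, its interval was wide, from -1.05 to 1.33 on the log2 scale (adjusted p 0.872). Exons of Zeb2 share 653 bases with the opposite-strand gene Zeb2os in GENCODE M21, and since no strand setting is given, reads of both genes could not be told apart.

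Nfil3 varied more between libraries of a group than between groups. It had 31.7 and 5.83 CPM in CpG CD103 high replicates 1 and 2, 8.40 and 15.6 CPM in CD103 low replicates 1 and 2, and 43.9, 12.5 and 9.15 CPM in CD103 negative replicates 1, 2 and 3. The log2 fold change of CpG CD103 high over CD103 negative was -0.58, with a 95% interval of -2.02 to 0.86 (adjusted p 0.54), and it was 0.59 without CD103 negative replicate 1 and 0.16 without CpG CD103 high replicate 2. Summed over 16 genes of bZIP partners and relatives, of which Fos was the most abundant, the sum was 5374 and 4557 CPM in CpG CD103 high libraries, 2784 and 5207 CPM in CD103 low libraries and 9237, 5100 and 3127 CPM in CD103 negative libraries. The order of libraries within each group was the same for that sum and for Nfil3, and the part of this in the Nfil3 values was not tested.

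**Figure D2:**
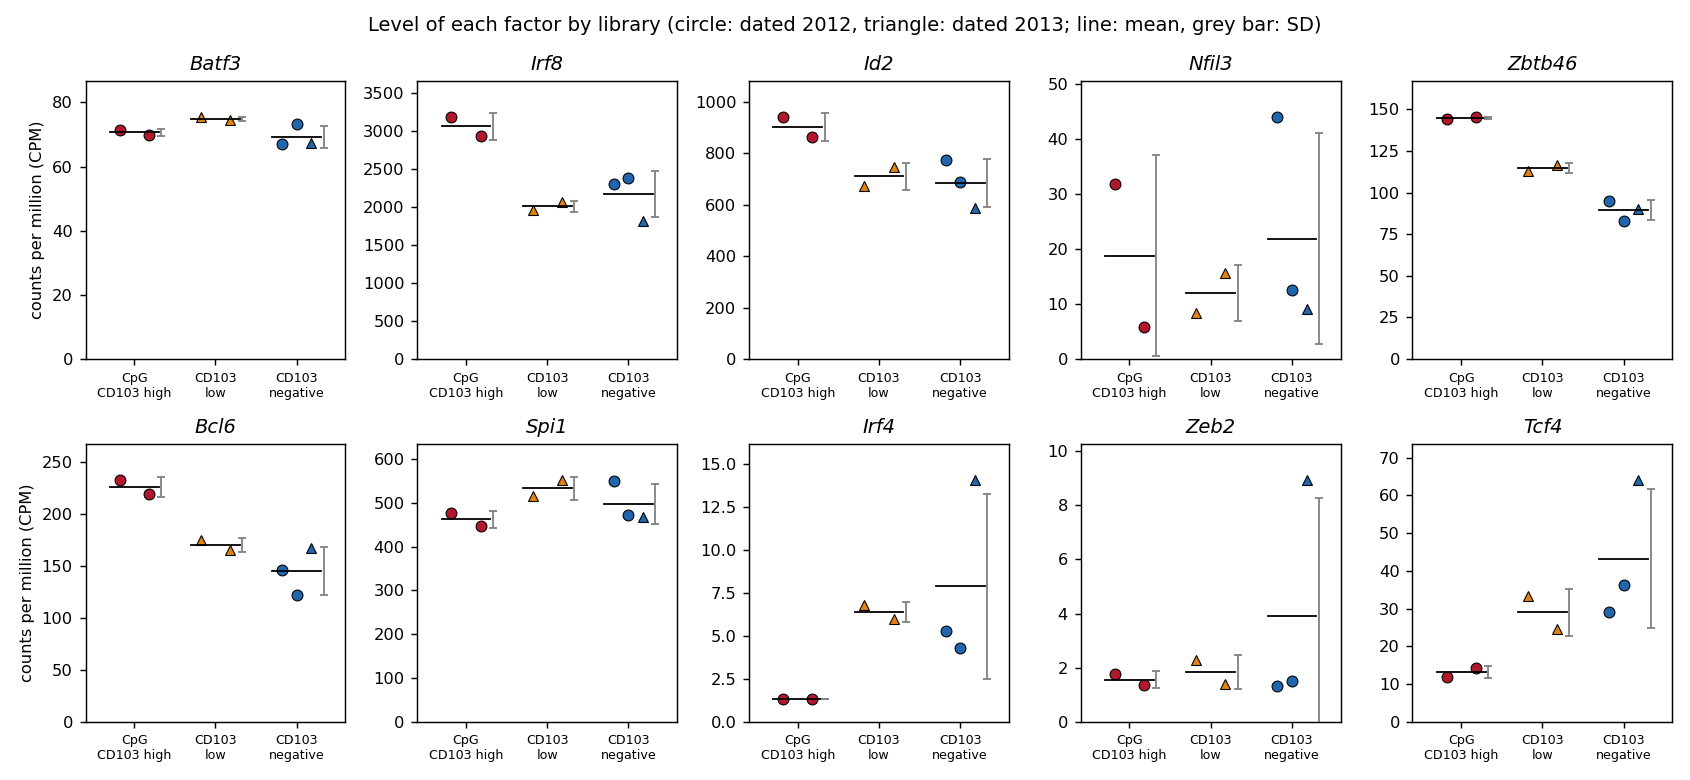
CPM of each factor in each library, with the group mean as a line and the SD as a grey bar; circles are dated 2012 and triangles 2013. Irf8, Id2, Zbtb46 and Bcl6 are highest in both CpG CD103 high libraries, Irf4 and Tcf4 are lowest there, and CD103 negative replicate 3 holds the highest Irf4, Zeb2 and Tcf4.

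Promoter sequence is shown for 3 of the 6 factors that moved, Irf8 and Bcl6 as factors that rose and Irf4 as one that fell. They were chosen because their windows lie at or next to the annotated start and hold at most 7 bases of GENCODE M21 exons. The windows of Irf8 and Irf4 end right before that start. On the minus strand, the Bcl6 window reaches 23988853, past the annotated start at 23988866, so its last bases lie inside the gene. The sequences are the 250 bases before the start in RefSeq, build GRCm38.p6, which mm10 shares: chr8:120736108-120736357 on the plus strand for Irf8, chr16:23988853-23989102 on the minus strand for Bcl6 and chr13:30748983-30749232 on the plus strand for Irf4. Capitals mark matches to the motifs named in the next paragraph.
Irf8: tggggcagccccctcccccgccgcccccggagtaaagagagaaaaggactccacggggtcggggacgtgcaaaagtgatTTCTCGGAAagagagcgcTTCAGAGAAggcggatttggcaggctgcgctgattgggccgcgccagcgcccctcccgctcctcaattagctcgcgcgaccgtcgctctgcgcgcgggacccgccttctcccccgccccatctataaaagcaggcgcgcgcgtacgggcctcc
Bcl6: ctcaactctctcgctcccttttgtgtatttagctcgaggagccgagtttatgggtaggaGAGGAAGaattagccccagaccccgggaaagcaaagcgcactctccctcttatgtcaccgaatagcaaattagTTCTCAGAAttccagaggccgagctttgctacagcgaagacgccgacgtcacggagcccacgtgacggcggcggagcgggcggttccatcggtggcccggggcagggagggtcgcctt
Irf4: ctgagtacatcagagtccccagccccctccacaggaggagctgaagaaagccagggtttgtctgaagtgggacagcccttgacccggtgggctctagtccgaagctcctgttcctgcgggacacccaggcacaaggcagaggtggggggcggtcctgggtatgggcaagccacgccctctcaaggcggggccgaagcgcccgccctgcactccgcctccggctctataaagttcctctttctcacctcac

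Motifs were searched on both strands in the 250 bases before the start that RefSeq gives for 27025 genes, with 8 of the 10 factors in the table and Spi1 and Tcf4 not in it. The whole windows of Zbtb46 and Nfil3 lie inside the gene as annotated, so they are not upstream of it. The windows of Batf3 and Id2 hold 163 and 161 bases of GENCODE M21 exons. The gamma-activated site TTCNNNGAA, which STAT dimers bind, was found in Irf8, with matches whose first bases lie 171 and 153 bases before the start, in Bcl6 at 118 bases and in Batf3, and in 7.14% of all windows. GAGGAAG, the core that PU.1 binds with its flanks, was found in Bcl6 and Batf3 and in 10.4% of windows. The AP-1 site TGANTCA, which BATF and JUN pairs bind, was found in the internal Zbtb46 window and in 6.85% of windows, and the E-box CAGCTG in Id2 and Nfil3 and in 12.7% of windows. The E-box CAGGTG, shared by E proteins and ZEB factors, was found in the same Zbtb46 window and in 17.1% of windows. The interferon-stimulated response element, searched as GAAA, any 2 bases and GAAA (3.05% of windows), the ETS-IRF composite element, searched as GGAA, any 2 bases and GAAA (2.38%), and TTANGTAA, the site type of NFIL3 (2.11%), had no match in the 8 windows. No 2 of these motifs overlapped in the sequences shown. A match is a description of letters and not of binding.

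Ratios of opposing factors were taken within a library, per length of the gene models, so that scaling between libraries cancels. The log2 ratio of Irf8 to Irf4 was 11.83 and 11.70 in CpG CD103 high libraries, 8.87 and 9.13 in CD103 low libraries, and 9.46, 9.80 and 7.73 in CD103 negative replicates 1, 2 and 3. Both CpG CD103 high libraries were above all others, with 6 counts of Irf4 behind each. The log2 ratio of Id2 to Tcf4 was 8.87 and 8.49 in CpG CD103 high, 6.92 and 7.51 in CD103 low, and 7.32, 6.84 and 5.79 in CD103 negative libraries, again with the CpG CD103 high libraries above all others. The ratios that involve Zeb2 overlapped between all groups. The log2 ratio of Id2 to Zeb2 averaged 11.92 ± 0.18 in CpG CD103 high (SD, n = 2), 11.39 ± 0.58 in CD103 low (n = 2) and 10.79 ± 1.68 in CD103 negative cells (n = 3), and that of Nfil3 to Zeb2 averaged 5.25 ± 1.45, 4.81 ± 1.10 and 4.84 ± 2.47 in the same groups. The ratios are given as a description and were not tested.

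**Figure D3:**
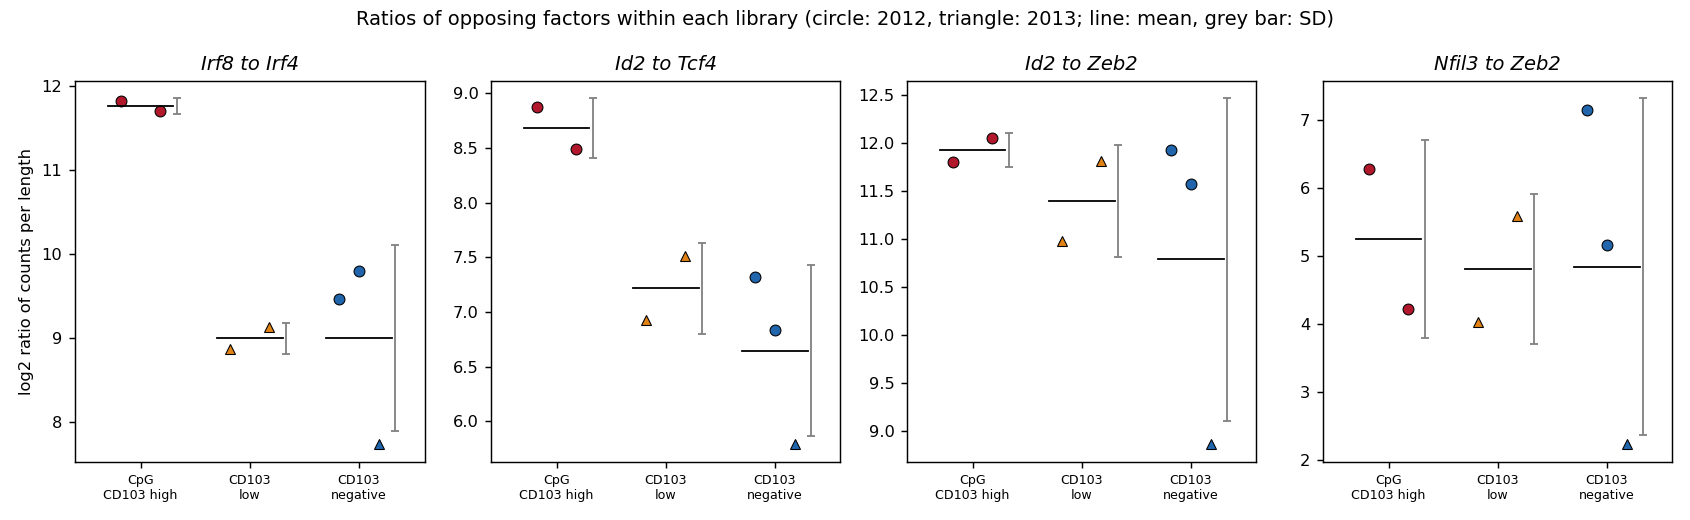
Log2 ratio of counts per length of Irf8 to Irf4, Id2 to Tcf4, Id2 to Zeb2 and Nfil3 to Zeb2 in each library, with the group mean as a line and the SD as a grey bar; each panel has its own axis, which does not start at 0. For Irf8 to Irf4 and Id2 to Tcf4 the CpG CD103 high libraries sit above the rest, and in all 4 panels CD103 negative replicate 3 is lowest.

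CD103 low cells were set against CD103 negative cells, both untreated. Of the 10 factors 0 were called in either direction, and of all genes tested 0.138%, with 0.0552% higher and 0.0829% lower. The edgeR test gave 5 of the 10 factors and 797 of 10863 genes an unadjusted p under 0.05. DESeq2 called 0 of the 10 as well. The median log2 fold change was 0.15 over the factors and 0.01 over all genes. The CPM of the groups did not overlap for Zbtb46 and Batf3, 2 of 10 factors, against 28.3% of all genes tested.

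Zbtb46 stood between the other groups, with 113 and 117 CPM in CD103 low libraries, against 94.9, 83.0 and 90.2 CPM in CD103 negative libraries (log2 fold change 0.35, SE 0.12, adjusted p 0.514). The value ran from 0.32 to 0.37 over 13 alternatives, and it was 0.34 (adjusted p 0.0554) with neither the date term nor CD103 negative replicate 3. Batf3 had 75.4 and 74.5 CPM in CD103 low libraries, against 67.2, 73.3 and 67.5 CPM in CD103 negative libraries (0.15, 95% interval -0.13 to 0.43, adjusted p 0.862). Irf8 had 1952 and 2059 CPM in CD103 low libraries, between the 1816 CPM of CD103 negative replicate 3 and the 2296 and 2374 CPM of replicates 1 and 2, and its sign depends on which of these is the control (0.14 with the date term, -0.25 with neither the date term nor CD103 negative replicate 3). Id2 had 673 and 747 CPM in CD103 low libraries (0.27, adjusted p 0.645), Bcl6 174 and 165 CPM (0.02, adjusted p 0.987) and Spi1 515 and 553 CPM (0.19, adjusted p 0.796), and each overlapped the CD103 negative libraries. The value of Bcl6 also depends on the control library, since it was 0.31 (adjusted p 0.0864) with neither the date term nor CD103 negative replicate 3.

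The opposing factors had the largest differences in this comparison, and these rested on 1 control library. CD103 negative replicate 3 held the highest Tcf4, Irf4 and Zeb2 of all 7 libraries, at 64.1, 14.0 and 8.94 CPM. Tcf4 had 33.4 and 24.6 CPM, Irf4 6.81 and 5.98 CPM and Zeb2 2.27 and 1.38 CPM in CD103 low replicates 1 and 2. Against that control the log2 fold change was -1.14 for Tcf4 (SE 0.20, adjusted p 0.072), -1.13 for Irf4 (SE 0.29, adjusted p 0.241) and -2.27 for Zeb2 (SE 0.44, adjusted p 0.0935). Over the libraries dated 2013 alone, where that library is again the only control and is assumed to vary like the CD103 low ones, the adjusted p was 0.000915 for Tcf4 and 0.012 for Zeb2, which had 42 counts in it and 6 to 10 in the other 6 libraries. With neither the date term nor CD103 negative replicate 3, Tcf4 was at -0.20 (adjusted p 0.521), Irf4 at 0.39 (0.449) and Zeb2 did not pass the filter on low counts. Among markers with 10 or more counts over the 7 libraries, the same library was highest for 10 of 15 of plasmacytoid dendritic cells and for 9 of 18 of cDC2, with 90 counts of Siglech, a receptor of plasmacytoid dendritic cells, against 1 to 21 counts in the other libraries. The part of such cells in these values was not tested.

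Between CpG CD103 high and CD103 low cells 1 of the 10 factors was called, Bcl6, and 6.22% of all genes tested (3.44% higher and 2.78% lower). Bcl6 had 232 and 219 CPM in CpG CD103 high libraries, against 174 and 165 CPM in CD103 low libraries, and rose 1.66-fold (log2 fold change 0.73, SE 0.16, adjusted p 0.0291). The call of Bcl6 was lost without CD103 negative replicate 2 (adjusted p 0.057), CD103 low replicate 1 (0.103) or CD103 low replicate 2 (0.127), without a filter on low counts (0.0784) and without the date term (0.121), where its log2 fold change was 0.41. The CPM of the groups did not overlap for 8 of 10 factors, all but Nfil3 and Zeb2, against 58.6% of all genes tested. The median log2 fold change was -0.06 over the factors and -0.02 over all genes.

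The groups of this comparison were dated in different years, so the fit joins them through the CD103 negative libraries and carries over what CD103 negative replicate 3 holds. Irf4 had 1.33 and 1.34 CPM in CpG CD103 high libraries, against 6.81 and 5.98 CPM in CD103 low libraries, but its log2 fold change in the fit was -0.69 (95% interval -1.78 to 0.40, adjusted p 0.431). Tcf4 had 12.0 and 14.3 CPM in CpG CD103 high libraries, against 33.4 and 24.6 CPM in CD103 low libraries, with -0.17 in the fit (95% interval -0.81 to 0.47, adjusted p 0.76). With the date term 676 of all genes were called. With neither the date term nor CD103 negative replicate 3, 1668 genes were called, among them 6 factors. These were Irf8 (0.63), Id2 (0.36), Zbtb46 (0.35) and Bcl6 (0.43) higher, and Irf4 (-2.21) and Tcf4 (-1.12) lower. In that fit the year and the group cannot be told apart. The other factors missed the threshold with the date term. Irf8, at 3175 and 2933 CPM in CpG CD103 high libraries against 1952 and 2059 CPM in CD103 low libraries, had a log2 fold change of 0.24 (95% interval -0.025 to 0.51, adjusted p 0.256). Zbtb46 stood at 0.36 (0.013 to 0.70, adjusted p 0.197) and Id2 at 0.028 (-0.31 to 0.36, adjusted p 0.936). Zeb2, with 8 and 6 counts in CpG CD103 high libraries against 10 and 6 counts in CD103 low libraries, had 2.41 in the fit (adjusted p 0.074) and -0.22 without the date term. Nfil3 was at -0.97 (-3.59 to 1.65, adjusted p 0.664). Batf3 was at -0.14 (95% interval -0.51 to 0.22, adjusted p 0.645) and Spi1 at -0.33 (-0.67 to 0.0033, adjusted p 0.217).

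**Figure D4:**
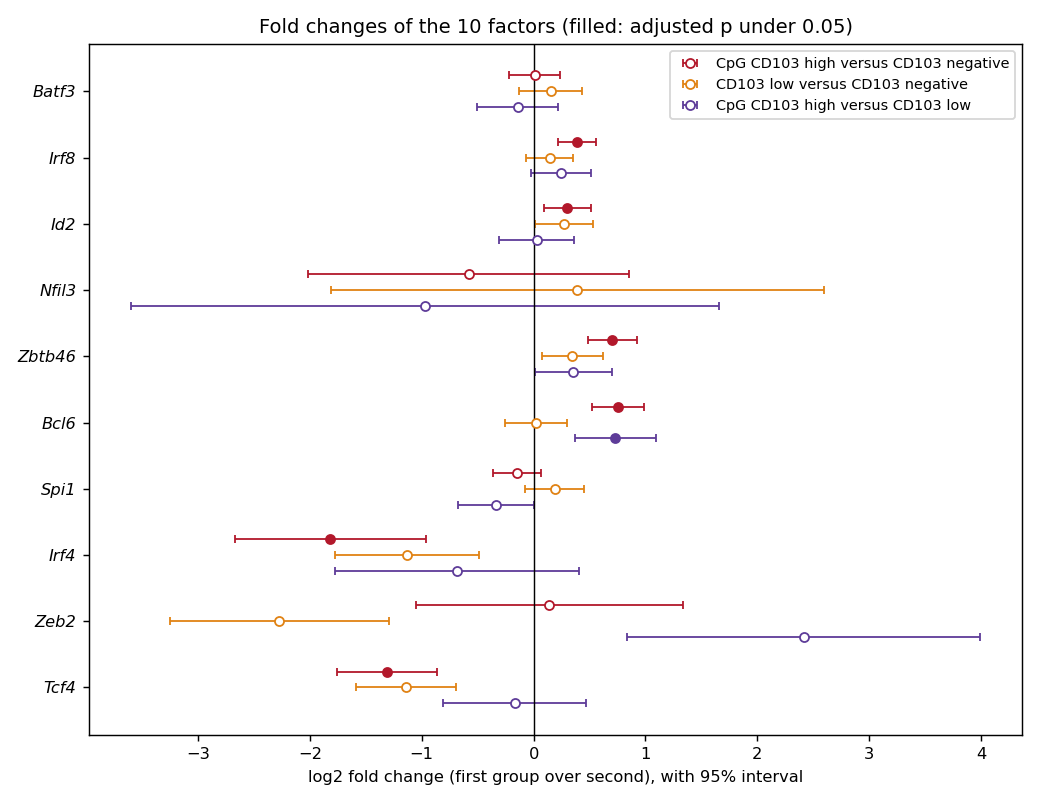
Log2 fold change of each factor, first group over second, in the 3 comparisons, with 95% intervals; filled points have an adjusted p under 0.05. In CpG CD103 high over CD103 negative Irf8, Id2, Zbtb46 and Bcl6 are filled to the right of 0 and Irf4 and Tcf4 to the left, in CpG CD103 high over CD103 low only Bcl6 is filled, and in CD103 low over CD103 negative none is.

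The relatives and partners of these factors were also compared between CpG CD103 high and CD103 negative cells. All changes given for them and for the cell type markers are log2 fold changes. Of all genes tested 26.3% were called in this comparison, 14.5% higher and 11.8% lower. These shares stand beside each count of related factors and markers given for it below. Among 7 other interferon regulatory factors 3 rose and 0 fell, with a median log2 fold change of 0.38. Irf1, an activator that interferon gamma induces, had 315 and 285 CPM in CpG CD103 high libraries, against 158, 171 and 191 CPM in CD103 negative libraries (0.87, SE 0.09, adjusted p 0.000212). Irf7, the amplifier of type I interferon, rose by 1.03 (SE 0.15) and Irf5, which acts below Toll-like receptors, by 0.38 (SE 0.08). Irf1 and Irf7 were also higher in CpG CD103 high than in CD103 low cells, by 1.04 (SE 0.14) and 0.95 (SE 0.23).

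Of 13 tested bZIP partners and relatives 2 rose and 1 fell, against 14.5% and 11.8% of all genes tested. Jun, the partner of BATF3 on DNA, had 363 and 415 CPM in CpG CD103 high libraries, against 1318, 939 and 522 CPM in CD103 negative libraries, a fall with a log2 fold change of -1.54 (SE 0.24, adjusted p 0.00143). Batf2, a relative that can stand in for BATF3 in infected mice, had 13.1 and 12.8 CPM in CpG CD103 high libraries, against 1.98, 5.17 and 2.55 CPM in CD103 negative libraries (1.84, SE 0.36), and Jdp2, another JUN dimer partner, rose by 0.90 (SE 0.20). Of 7 E proteins, Id proteins and their corepressors besides Tcf4 and Id2, 4 passed the filter on low counts, with 1 higher and 0 lower. Cbfa2t3, the E protein corepressor also called ETO2, rose by 0.40 (SE 0.08). The E protein genes Tcf3 and Tcf12 stood at 0.09 and -0.15 (adjusted p 0.527 and 0.382).

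Among 13 ETS, ZEB and BCL6 relatives 1 rose and 3 fell, against 14.5% and 11.8% of all genes tested. Spib, an ETS factor of plasmacytoid dendritic and B cells, had 0.67 and 1.79 CPM in CpG CD103 high libraries, against 8.56, 5.60 and 19.2 CPM in CD103 negative libraries (-2.50, SE 0.48). Spic, the ETS factor of red pulp macrophages, fell by 1.30 (SE 0.33), and Zbtb7b rose by 0.35 (SE 0.10). Of 30 other dendritic cell factors 7 rose and 6 fell. Stat3, which signals below the cytokines FLT3 ligand and interleukin 10, rose by 0.80 (SE 0.09) and Ciita, the transactivator of MHC class II, by 0.56 (SE 0.08), while Mef2c fell by 2.48 (SE 0.22).

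The markers of the cells that these factors build or oppose were set beside them. Of 25 cDC1 markers, Itgae among them, 15 rose and 2 fell in CpG CD103 high against CD103 negative cells, with a median of 0.46. Tlr3, which senses double-stranded RNA, rose by 1.01 (SE 0.08), and Cd207, the lectin langerin, fell by 3.93 (SE 0.21). Of 15 tested cDC2 markers 9 fell and 0 rose, with a median of -1.25, and their sum over 19 genes ran from 327 to 400 CPM in CpG CD103 high, from 705 to 757 CPM in CD103 low and from 579 to 835 CPM in CD103 negative cells. Tmem176a and Tmem176b fell by 3.05 (SE 0.17) and 3.98 (SE 0.26), and the chemokine receptor gene Ccr2 by 1.38 (SE 0.15). Cd209a was at 0 counts in both CpG CD103 high libraries and ran from 0.862 to 21.3 CPM in CD103 negative libraries. Clec4a4 was at 0 in CD103 low and CD103 negative cells and reached only 0.222 CPM in CpG CD103 high cells. Mgl2, another cDC2 marker, was higher in CpG CD103 high cells but was not called. It ran from 2.22 to 3.36 CPM there, against at most 0.230 CPM in CD103 low and 0.220 CPM in CD103 negative libraries. Of 8 tested plasmacytoid dendritic cell markers 2 rose, Pacsin1 by 2.27 (SE 0.18) and Ly6c2 by 1.96 (SE 0.28), and 3 fell, Spib among them. Ly6c2 ran from 26.9 to 48.4 CPM in CpG CD103 high and from 8.56 to 45.8 CPM in CD103 negative cells. These ranges overlap, and the fitted rise is against CD103 negative replicates 1 and 2. The sum of plasmacytoid markers over 17 genes ran from 228 to 282 CPM in CpG CD103 high, from 185 to 187 CPM in CD103 low and from 191 to 298 CPM in CD103 negative cells. The part of cDC2 and plasmacytoid cells in the lower Irf4 and Tcf4 was not tested.

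In CD103 low against CD103 negative cells 0 genes of the 5 lists of related factors were called, and of the markers only Itgae was called higher and Ccr2, Cd7 and Ly6c2 lower. These fits have CD103 negative replicate 3 as the control, which held 39.4 CPM of Cd7 and 45.8 CPM of Ly6c2. Cd7 had 15.2 and 12.2 CPM in CD103 low libraries, against 12.1 and 9.49 CPM in CD103 negative replicates 1 and 2. Ly6c2 had 9.76 and 11.3 CPM in CD103 low libraries, against 8.56 and 10.8 CPM in those replicates, so the calls of Cd7 and Ly6c2 rest on replicate 3. Ccr2 ran from 18.4 to 24.3 CPM in CD103 low libraries and from 60.2 to 73.9 CPM over all CD103 negative libraries, with no overlap. In CpG CD103 high against CD103 low cells Jun and Mef2c were lower, by 1.97 (SE 0.38) and 1.99 (SE 0.32) on the log2 scale. Jun had 363 and 415 CPM in CpG CD103 high libraries, against 505 and 902 CPM in CD103 low libraries, a smaller difference than the fitted one, which goes through the CD103 negative libraries of both years. Mef2c had 9.98 and 9.64 CPM in CpG CD103 high libraries, against 44.5 and 30.8 CPM in CD103 low libraries. Stat3 and Ciita were higher, by 0.77 (SE 0.14) and 0.53 (SE 0.12). Of the markers, Tlr3 was higher there by 0.65 (SE 0.13) and Ly6c2 by 4.08 (SE 0.42), and Cd207, Tmem176a and Tmem176b were lower, with log2 fold changes of -4.88 (SE 0.29), -2.40 (SE 0.24) and -3.08 (SE 0.37). Ly6c2 ran from 26.9 to 48.4 CPM in CpG CD103 high libraries, against 9.76 and 11.3 CPM in CD103 low libraries. That difference is smaller than the fitted one, which carries over the 45.8 CPM of CD103 negative replicate 3. All these fits, too, rest on CD103 negative replicate 3.

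**Figure D5:**
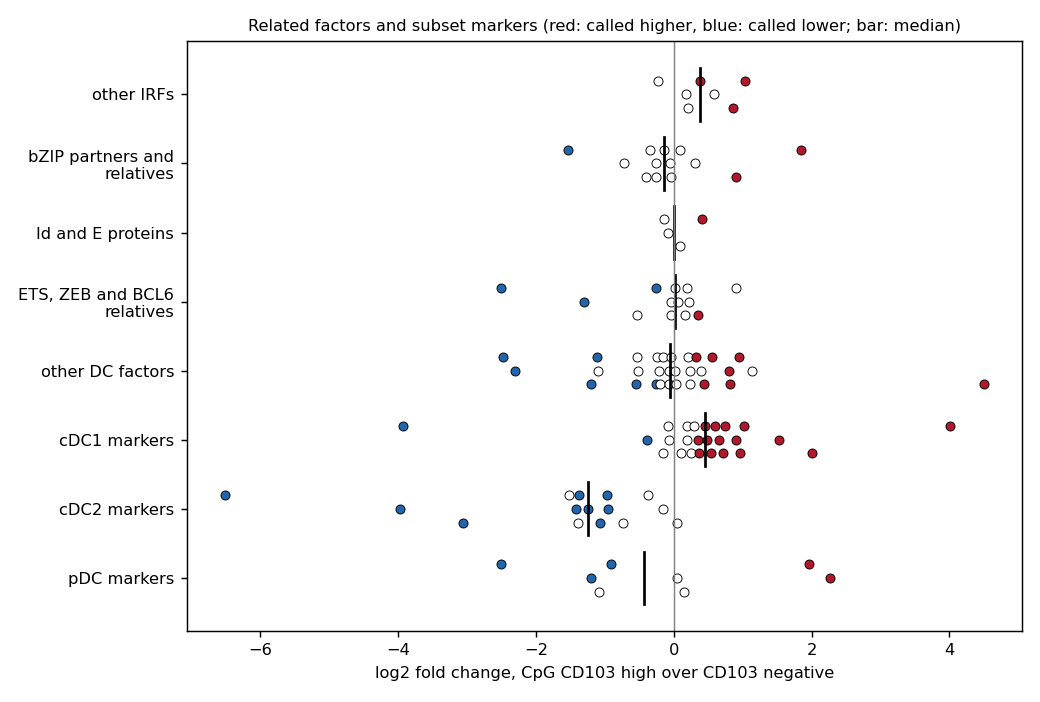
Log2 fold change of CpG CD103 high over CD103 negative for each tested gene of the related factor lists and of the cDC1, cDC2 and plasmacytoid dendritic cell (pDC) markers; red points were called higher and blue points lower, open points were not called, and the bar is the median of the list. The median is 0.38 for the other IRFs, 0.46 for cDC1 markers and -1.25 for cDC2 markers.

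Markers of further cell types stayed below the cDC1 markers. B cell markers summed to between 475 and 506 CPM in CpG CD103 high, 505 and 527 CPM in CD103 low and 510 and 532 CPM in CD103 negative cells, most of it Ighm, with Cd79a at 0 in CpG CD103 high. Of the 4 tested B cell markers 3 fell in CpG CD103 high against CD103 negative cells and 0 rose, with a median log2 fold change of -2.55. Ms4a1, which encodes CD20, had 8.21 and 9.64 CPM in CpG CD103 high libraries, against 69.8, 47.4 and 48.1 CPM in CD103 negative libraries, and Cd22 had 2.44 and 3.36 CPM, against 20.6, 26.3 and 28.5 CPM. The part of B cells in the lower Irf4, Tcf4 and Spib was not tested. Macrophage and monocyte markers summed to between 381 and 473, 202 and 237, and 132 and 208 CPM in the same groups, most of it Hmox1, which was called higher in CpG CD103 high than in CD103 negative cells, while Vcam1 and Spic were called lower. NK cell markers summed to between 102 and 118, 62.1 and 68.1, and 84.9 and 110 CPM, most of it Klrk1. Erythroid and platelet markers summed to between 32.8 and 35.6, 8.05 and 17.7, and 2.80 and 3.83 CPM, led by Hba-a1, and neutrophil markers to between 18.2 and 25.5, 0.46 and 4.31, and 0.44 and 4.31 CPM, led by S100a9. T cell markers summed to between 4.48 and 6.88, 9.08 and 52.6, and 8.51 and 11.4 CPM, with the highest sum in CD103 low replicate 2. Their part in the values of the factors was not tested.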

How the data were processed

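RNA of 7 sorted samples was measured by sequencing. The authors deposited 1 file per sample with raw whole-number counts and a length per gene, per the file headers. CASAVA, Subread 1.4.6, featureCounts and the build mm10 are named per the submitters' processing notes, without roles. Annotation, strand setting and the handling of multi-mapping reads were not given in the sources used here. A table with 7 columns that match no sample label was not used. Of 27179 Entrez identifiers 25275 (93%) matched a RefSeq symbol (GRCm38.p6).

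The counts were tested with edgeR 4.0.16 (R 4.3.3): filterByExpr by group left 10863 genes, libraries were scaled by TMM factors, and a quasi-likelihood model with group and year was fitted to all 7 libraries (3 residual degrees of freedom). A gene was called where its p, adjusted by Benjamini-Hochberg over all genes, was under 0.05. The SE is the size of the log2 fold change over the square root of F. CPM and RPKM used TMM-scaled library sizes and the deposited lengths. Ratios used a prior count of 0.5. The fit was also run on simulated data as a check of the code, with no outcome reported here. Replicates of a group differed beyond sampling noise (chi-square per degree of freedom at least 2.99). The p-values measure the spread between samples, which the submitters call biological replicates. With the year in the fit, CD103 negative replicate 3 is the only control dated 2013 and adds nothing to that spread. The p-values and SEs of the comparisons with CD103 low therefore assume that it varies like the other libraries.

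The factors and lists were chosen with earlier results of these data known. Genes named are the 10 factors, Itgae, and from each list up to 3 called genes by adjusted p or the most abundant one. Tcf3, Tcf12, Siglech, Cd209a, Clec4a4, Mgl2, Cd79a, Ms4a1, Cd22, Vcam1, Xcr1, Clec9a and Cadm1 were named after their values were seen. Alternatives were RLE scaling, no low-count filter, DESeq2 1.42.0 (no independent filtering), no date term, a replicate block, each year alone, CD103 negative replicate 3 left out with the date term, each replicate left out, and a prior count of 2. Without CD103 negative replicate 3 the comparisons with CD103 low cannot be fitted with the date term.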

Additional observations from a re-analysis of the deposited data

How the results depend on the processing

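Over the alternatives run, 17 of 30 fold changes of the factors kept their sign and 9 also kept their side of the threshold in all of them. Those with another sign were not called. Without the date term Zeb2 stood at -1.32 in CpG CD103 high over CD103 negative, Irf8 and Nfil3 at -0.11 and -0.86 in CD103 low over CD103 negative, and Nfil3 and Zeb2 at 0.65 and -0.22 in CpG CD103 high over CD103 low. With neither the date term nor CD103 negative replicate 3, CD103 low over CD103 negative gave Irf8 -0.25, Id2 -0.069, Nfil3 -1.25 and Irf4 0.39, and CpG CD103 high over CD103 low gave Nfil3 0.67. With the replicate block in place of the date term, CD103 low over CD103 negative gave Irf8 -0.22, Id2 -0.039, Nfil3 -1.05, Irf4 0.42 and Zeb2 0.35, with 2 factors, Zbtb46 and Bcl6, and 1175 genes called, and CpG CD103 high over CD103 low gave Nfil3 0.44 and Zeb2 -0.22, with 6 factors and 1775 genes called; in CpG CD103 high over CD103 negative the block called 6 factors. The numbers were not taken to pair samples: the differences of replicates 1 and 2 correlated across genes at 0.185 between CpG CD103 high and CD103 negative, -0.0157 between CpG CD103 high and CD103 low and -0.00323 between CD103 low and CD103 negative.

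Leaving out 1 replicate, CpG CD103 high over CD103 negative ran from -0.054 to 0.073 for Batf3, -2.27 to 0.59 for Nfil3 and -0.072 to 0.31 for Zeb2, CD103 low over CD103 negative from -0.018 to 0.063 for Bcl6 and -0.12 to 0.77 for Nfil3, and CpG CD103 high over CD103 low from -0.055 to 0.11 for Id2, -2.66 to 0.20 for Nfil3 and -0.38 to 0.064 for Tcf4.

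In CpG CD103 high over CD103 negative the factors called numbered 4 with DESeq2 and 5 to 6 without 1 replicate. The genes called, 2860, became 1459 with DESeq2, 1589 without the date term and 1738 to 2861 without 1 replicate (1738 without CD103 negative replicate 1, 1837 without replicate 2, 1849 without CpG CD103 high replicate 2). In CD103 low over CD103 negative the 15 genes called became 1 without a low-count filter, 28 with DESeq2, 1035 with neither the date term nor CD103 negative replicate 3, and 1 to 27 without 1 replicate (27 where CpG CD103 high replicate 1 was left out, 4 and 1 without CD103 low replicates 1 and 2). In CpG CD103 high over CD103 low the factors called, 1, became 0 without a low-count filter, 6 with neither the date term nor CD103 negative replicate 3, and 0 to 1 without 1 replicate; without the date term the 1 factor called was Irf8 (0.61, adjusted p 0.0237 by edgeR), not Bcl6. The 676 genes called there became 263 without a low-count filter, 382 with DESeq2, 1668 with neither the date term nor CD103 negative replicate 3, and 115 to 748 without 1 replicate (115 and 166 without CD103 low replicates 1 and 2, 284 without CD103 negative replicate 1). A prior count of 2 gave log2 ratios of 11.47 for Irf8 to Irf4 and 11.66 for Id2 to Zeb2 in CpG CD103 high, against 11.77 and 11.92, a limit set by the few counts of Irf4 and Zeb2. The cause of the other shifts was not tested.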

Other observations

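Further genes among the other dendritic cell factors, named after their values were seen, moved in CpG CD103 high against CD103 negative cells. Ikzf2, which encodes the zinc finger factor Helios, had 42 and 30 counts in CpG CD103 high libraries, against 0, 3 and 11 counts in CD103 negative replicates 1, 2 and 3, and rose at an adjusted p of 0.000995. On the log2 scale the Notch receptor genes Notch1 and Notch2 rose by 0.95 (SE 0.19) and 0.44 (SE 0.12), and Rbpj, the DNA-binding partner of Notch, by 0.32 (SE 0.10). Cebpa, a factor of myeloid progenitors, had 8 and 9 counts in CpG CD103 high libraries, against 58, 29 and 69 counts in CD103 negative libraries, a fall with a log2 fold change of -2.30 (SE 0.42).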
